A study of Caenorhabditis elegans with 2 samples.

Results

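The genes described here are all 346 genes that the Ensembl annotation of the Caenorhabditis elegans assembly WBcel235 classes as snoRNA, out of 46890 nuclear genes of all types. They were set against the binding sites of W03F9.2, a protein with a zinc finger fold, mapped by ChIP-seq, in which chromatin bound by a tagged protein is precipitated and its DNA sequenced. Whole worms of strain OP215, genotype unc-119(ed3) III; wgIs215, were used at the L4 and young adult stages with males and females pooled, and all of them form 1 group with 2 biological replicates. The integrated transgene wgIs215 carries W03F9.2 fused to eGFP, and every sample also carries the unc-119 allele. Worms are whole, so sites from all tissues are mixed, and neither an untagged strain nor wild type is among the samples. A site near a snoRNA gene was a summit, the position the authors' peak caller gives within a peak, at most 500 bp from the gene in the authors' optimal set of 2409 reproducible peaks. The same was done for the pooled list of 30000 entries, which reaches far below the optimal set in signal.

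Small nucleolar RNAs, or snoRNAs, guide the chemical modification of ribosomal and spliceosomal RNA. Those of the C/D kind carry the short C and D boxes near their ends and direct 2′-O-methylation, and those of the H/ACA kind end close to the letters ACA and direct the conversion of uridine to pseudouridine. Many lie in introns of protein-coding host genes and are cut from the host's intron, while others are transcribed from promoters of their own. As further background, snRNA genes have a short proximal promoter element upstream of their start, and tRNA genes are transcribed by RNA polymerase III from boxes A and B inside the gene.

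Of 89 snoRNA genes with an optimal-set summit within 500 bp, 68 had it in the 200 bp from 150 bp before to 50 bp after the first base of the snoRNA. This span, called the start window here, was chosen after the positions were seen. Among the sequences before the start, 2 letter patterns recurred, also chosen after seeing them, and 29 of the 68 genes held neither. In the first, called the proximal pair, GNAAC is followed after 8 bases by TGTC. It is shown in the snoRNA genes on chromosomes II to X that lie in an intron, over 1000 bp from the start of any protein-coding gene, and had the highest signals. The 100 bases before the snoRNA and its first 10 bases are given on the strand of the snoRNA, from the RefSeq copy of WBcel235, with both parts of the pair in capitals. They span ZK994.7 chrV:8500479-8500588 (plus strand), C16D9.11 chrV:8228960-8229069 (minus strand), C08D8.3 chrV:8349008-8349117 (plus strand), Y55F3BR.9 chrIV:867124-867233 (minus strand), W04D2.7 chrV:12491180-12491289 (plus strand), F01D5.12 chrII:14018432-14018541 (minus strand) and T06D8.11 chrII:11224082-11224191 (plus strand).
ZK994.7: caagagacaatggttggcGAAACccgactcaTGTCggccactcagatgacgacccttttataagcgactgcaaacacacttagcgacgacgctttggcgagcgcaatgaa
C16D9.11: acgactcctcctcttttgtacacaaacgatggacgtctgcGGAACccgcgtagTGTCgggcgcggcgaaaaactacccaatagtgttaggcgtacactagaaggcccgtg
C08D8.3: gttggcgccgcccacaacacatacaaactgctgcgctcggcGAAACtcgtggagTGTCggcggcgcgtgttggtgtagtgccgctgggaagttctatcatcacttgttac
Y55F3BR.9: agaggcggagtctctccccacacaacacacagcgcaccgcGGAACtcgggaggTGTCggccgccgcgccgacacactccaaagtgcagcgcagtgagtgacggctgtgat
W04D2.7: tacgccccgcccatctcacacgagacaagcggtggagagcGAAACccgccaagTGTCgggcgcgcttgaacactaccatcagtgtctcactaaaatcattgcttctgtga
F01D5.12: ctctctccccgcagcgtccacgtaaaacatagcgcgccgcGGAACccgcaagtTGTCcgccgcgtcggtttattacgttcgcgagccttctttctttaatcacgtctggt
T06D8.11: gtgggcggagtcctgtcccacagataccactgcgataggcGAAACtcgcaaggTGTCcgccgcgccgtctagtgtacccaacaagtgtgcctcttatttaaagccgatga

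In the second pattern, called the split pair, GGCNNA is followed after 20 to 90 bases by GTTCNANNC, a loosened form of the box B core GTTCGANNC. T03F7.8 was the only one of the 8 intronic genes chosen in that way to hold it. The 3 others shown, chosen after their values were seen, had the highest signals among the remaining snoRNA genes with the split pair on chromosomes II to X. The second part of the pair ends shortly before the snoRNA begins. The spans are T03F7.8 chrV:11314158-11314267 (plus strand), F55A11.10 chrV:11782892-11783001 (plus strand), F32E10.10 chrIV:7574022-7574131 (plus strand) and F12F6.11 chrIV:11549855-11549964 (minus strand), with both parts in capitals.
T03F7.8: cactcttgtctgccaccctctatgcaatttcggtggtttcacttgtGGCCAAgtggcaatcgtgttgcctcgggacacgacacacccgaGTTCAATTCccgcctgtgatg
F55A11.10: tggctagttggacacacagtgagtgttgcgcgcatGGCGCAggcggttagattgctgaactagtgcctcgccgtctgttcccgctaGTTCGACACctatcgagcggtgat
F32E10.10: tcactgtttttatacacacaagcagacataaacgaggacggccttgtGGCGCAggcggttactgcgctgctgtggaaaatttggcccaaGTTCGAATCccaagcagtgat
F12F6.11: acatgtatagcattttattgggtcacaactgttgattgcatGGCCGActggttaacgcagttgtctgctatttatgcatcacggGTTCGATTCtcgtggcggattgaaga

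The snoRNA itself begins at the tenth base from the end of each line above. The complete snoRNA genes C08D8.3 and Y55F3BR.9 are given to show the box letters of the C/D kind. The C box letters TGATGA and the last CTGA, the D box letters, are in capitals. Both genes were picked because they hold these letters, and no annotation of snoRNA kinds was used. They span C08D8.3 chrV:8349108-8349187 (plus strand) and Y55F3BR.9 chrIV:867056-867133 (minus strand).
C08D8.3: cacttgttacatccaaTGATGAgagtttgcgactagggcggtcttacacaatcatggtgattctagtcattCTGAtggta
Y55F3BR.9: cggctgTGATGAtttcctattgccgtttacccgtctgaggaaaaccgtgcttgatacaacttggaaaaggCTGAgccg

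Proximity of W03F9.2 summits to snoRNA genes was measured first. An optimal-set summit lay within 500 bp of 89 of 346 snoRNA genes (25.7%, exact 95% interval 21.2 to 30.7), against 7.57% of nuclear genes of all types. In the start window the share was 68 of 346 (19.7%, 15.6 to 24.2), against 2.19% of nuclear genes. The window was chosen after the snoRNA summit positions were seen, so it favours snoRNA genes over types with summits elsewhere. Protein-coding genes, for example, stood at 13.3% within 500 bp and 3.28% in the window. The intervals given here and below cover counting error over genes only, because the read depth behind the peaks is unknown. The 89 genes shared 87 summits, since 2 summits lay near a pair of snoRNA genes each, and no snoRNA gene had more than 1 optimal-set summit.

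Other genes for short RNAs differed among themselves. Within 500 bp, 24.2% of 612 nuclear tRNA genes and 15.5% of 129 snRNA genes had a summit, and so did 7.66% of 261 miRNA genes and 13.3% of 19973 nuclear protein-coding genes. In the start window the shares were 15.2% of tRNA genes, 10.9% of snRNA genes, 1.92% of miRNA genes and 3.28% of protein-coding genes. The 15363 annotated piRNA genes, a further class of short RNA genes, stood at 0.547% within 500 bp and 0.143% in the start window. They are part of the 46890 nuclear genes and lower the shares over all types. The interval of the snoRNA share overlapped those of the tRNA and snRNA genes. Overlap does not settle whether the shares differ, and the differences were not tested.

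**Figure D1:**
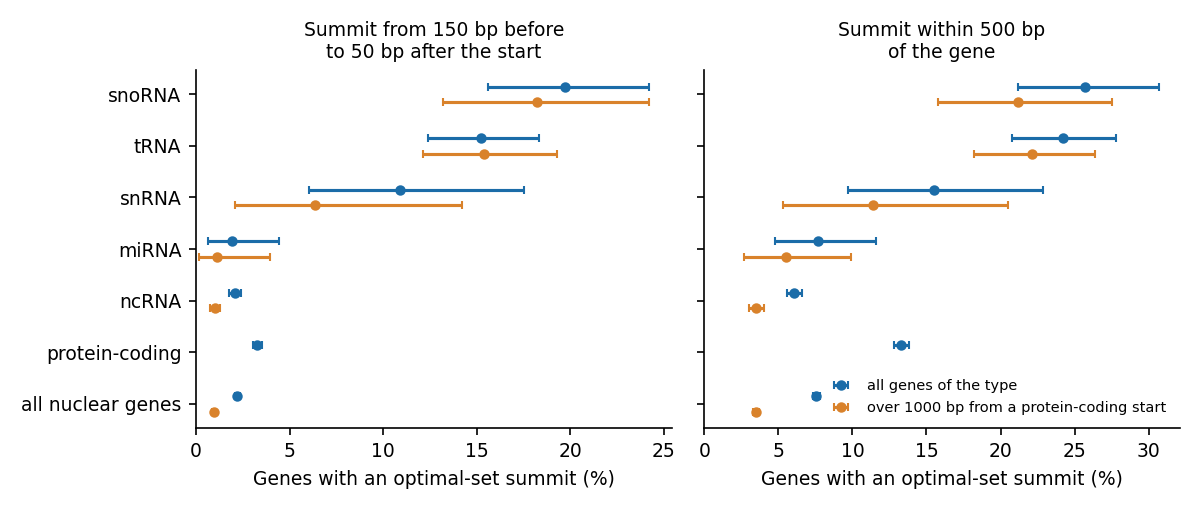
Share of genes with an optimal-set summit in the start window (left) or within 500 bp (right), by annotated type, for all genes of a type and for those over 1000 bp from a protein-coding start (not drawn for protein-coding genes themselves); points are shares and bars are exact 95% intervals. In the start window, which was chosen after the snoRNA summit positions were seen, snoRNA genes stood at 19.7% and all nuclear genes at 2.19%. Within 500 bp they stood at 25.7% and 7.57%.

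Many snoRNA genes lie near promoters of protein-coding genes, so distance to such promoters was treated by selection. Counting 1 start for each protein-coding gene, there were 203 snoRNA genes over 1000 bp from a start. Of these, 37 (18.2%, 13.2 to 24.2) had an optimal-set summit in the start window, against 0.964% of the 29991 nuclear genes equally far. Those 29991 include 12339 piRNA genes, of which 0.0405% had one, and this lowers the share over all types. Within 500 bp the count was 43 of 203 (21.2%), against 3.46%. With the starts of all protein-coding transcripts it was 39 of 185, so some genes called far here lie near the start of another transcript. The 143 snoRNA genes nearer to a protein-coding start had start-window summits in 31 cases (21.7%). Within 500 bp the near genes had one in 46 cases (32.2%, 24.6 to 40.5), against 21.2% of the far genes. The start-window share of the near genes was 12.8% in introns and 32.3% outside them. These differences were not tested.

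The pooled list told snoRNA genes from nuclear genes of all types less sharply over the wider distance. Within 500 bp, 207 of 346 snoRNA genes (59.8%) had an entry, against 46.5% of nuclear genes of all types. In the start window, 116 snoRNA genes (33.5%, 28.6 to 38.8) had one, against 12.0%. Of these 116, 48 had no optimal-set summit in the window. Over 1000 bp from a protein-coding start, 114 of 203 snoRNA genes (56.2%) had an entry within 500 bp, against 45.0% of nuclear genes, and 68 (33.5%) in the start window, against 10.7%. Nuclear tRNA genes had higher pooled-list shares than snoRNA genes, at 73.0% within 500 bp and 43.8% in the start window. Far from a protein-coding start the tRNA shares were 72.7% and 45.6%.

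The location of the summit along the snoRNA gene was then examined. Relative to the first base of the snoRNA, the nearest summit had a median position of -36, where minus means upstream (quartiles -62 and -3, n = 89), and 56 of 89 (62.9%) lay in the last 100 bp before it. Summits in this set mostly stand at the middle of the peak, so positions are approximate. In introns far from a protein-coding start the median was -24.5 (n = 24), and outside introns and far from a start it was -32.0 (n = 19). Outside introns and near a start it was -51.0 (n = 23).

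Intronic snoRNA genes near a start were spread more widely, with a median of -43.0, a lower quartile of -310 and a range of -486 to 543 (n = 23). In 12 of these 23 the summit lay closer to a protein-coding start than to the start of the snoRNA, whereas this held for 1 of the 23 genes near a start but outside introns. These 12 therefore cannot be told apart from summits at the promoter of the host or of a neighbour.

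**Figure D2:**
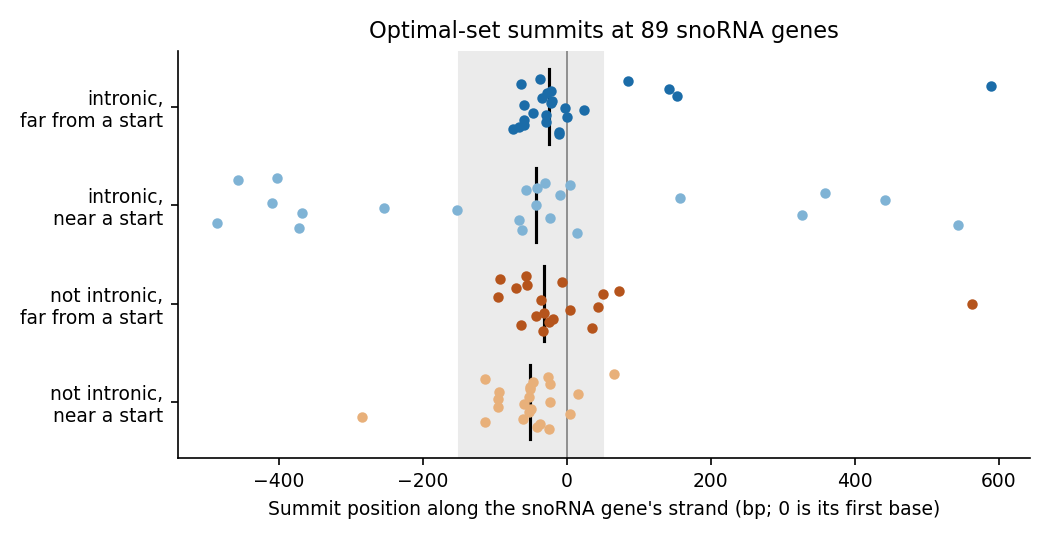
Position of the optimal-set summit of highest signal along the strand of each of 89 snoRNA genes, in bp from its first base, by location (intronic or not, within 1000 bp of a protein-coding start or not); black bars are medians and grey marks the start window. Medians ran from -51.0 to -24.5, and the summits 253 to 486 bp upstream belonged to intronic genes near a start, apart from W06H8.17 at -284.

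Signal, the authors' value for each peak in the units of their caller, had a slightly higher median at snoRNA genes than at other nuclear peaks. The 87 peaks had a median of 76.0 (range 49.0 to 299), against 69.2 (48.5 to 2453) for the 2302 other nuclear peaks. Of these 87, 4 ranked among the 100 strongest of 2389 nuclear peaks, 17 among the 500 strongest and 51 above the middle rank. The counts of 4 and 17 were near the shares that 100 and 500 are of 2389. The best rank was 23.

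Of 100 intronic snoRNA genes over 1000 bp from the start of any protein-coding gene, 24 had a summit within 500 bp and 20 in the start window (exact interval 12.7 to 29.2%). The 8 with the highest signal were, from the top, ZK994.7, C16D9.11, T03F7.8, C08D8.3, Y55F3BR.9, W04D2.7, F01D5.12 and Y37E3.20. Their summits all lay between -66 and 24.

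ZK994.7, in an intron of the peroxidasin gene pxn-1, had a pooled signal of 117 and a signal of 60 in replicate 1, with the summit at -60 and 5630 bp into the host. The list of replicate 2 has no entry overlapping this peak, so it rests on replicate 1 and the pooled call. C16D9.11, in an intron of rol-3, which encodes a receptor tyrosine kinase needed for cuticle formation, had signals of 42.2 in replicate 1, 71.0 in replicate 2 and 113 pooled, at -59. Both snoRNA genes lie on the host's strand and hold the proximal pair.

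T03F7.8 lies in an intron of cutl-18, of the cuticlin-like family, on the opposite strand. Its peak had 58.8 in replicate 1, 48.4 in replicate 2 and 103 pooled, with the summit at -66, upstream of the split pair, which began at -54. It was 1 of 13 snoRNA peaks stronger in replicate 1. Y55F3BR.9, also antisense to its host Y55F3BR.2, had 34.4, 51.4 and 82.1 in the same order of lists, at 24 bp into the snoRNA and 7658 bp from the nearest protein-coding start.

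C08D8.3, in C08D8.1, had 30 in replicate 1, 59.0 in replicate 2 and 85.6 pooled, at -29. W04D2.7, in the innexin gene inx-11 that encodes a gap junction subunit, had 27.4, 57.1 and 81.6 at -11. F01D5.12, in F01D5.10, had 30, 50.1 and 79.1 at -21. These 3 peaks were alike in all lists and each was stronger in replicate 2.

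Y37E3.20, in pcyt-2.1, had 24.5 in replicate 1, 53.1 in replicate 2 and 79.1 pooled at -37. T06D8.11, in plpr-1, had 38.8, 43.7 and 78.7 at -27. The lowest pooled signal among the 24 genes of this class was 50.4, at Y71F9AM.7 in cogc-3, which encodes a subunit of a Golgi tethering complex, and there the summit lay 85 bp after the start.

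Orientation within the host was recorded as well. Of 149 intronic snoRNA genes on the strand of their host, 21 (14.1%, 8.94 to 20.7) had a start-window summit, and of 28 on the opposite strand, 9 did (32.1%, 15.9 to 52.4). The difference was not tested, and the intervals overlap. As background, a snoRNA on the opposite strand cannot be cut from the host's transcript. The 9 include T03F7.8, Y55F3BR.9 and ZK484.9, in the ABC transporter gene haf-9, whose peak had 34.9 in replicate 1, 87.5 in replicate 2 and 123 pooled at -30.

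The host introns themselves served as a comparison within the same genes. Of 176 introns that hold a snoRNA gene, 41 (23.3%, 17.3 to 30.2) held an optimal-set summit, against 7 of 1356 other introns of the same host genes (0.516%, 0.208 to 1.06) and 0.371% of all 109516 introns of protein-coding genes. Introns with a snoRNA gene are longer, with a median of 479 bp against 140 bp. With introns of at least 300 bp only, the counts were 32 of 109 (29.4%) and 6 of 524 (1.15%), against 1.20% of all introns of that length. Per kb of intron the values were 0.104 summits with a snoRNA gene and 0.0104 without.

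The same contrast was present in each replicate alone, taken as its 2409 entries of highest signal. Among introns of at least 300 bp, replicate 1 had summits in 30.3% of those with a snoRNA gene and 1.53% of those without. In replicate 2 the shares were 27.5% and 1.15%. In the pooled list the shares for these introns were 71.6% with a snoRNA gene and 35.7% without. Their lengths differ, with medians of 1425 and 763 bp, and per kb the pooled list had 0.470 and 0.486 summits.

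**Figure D3:**
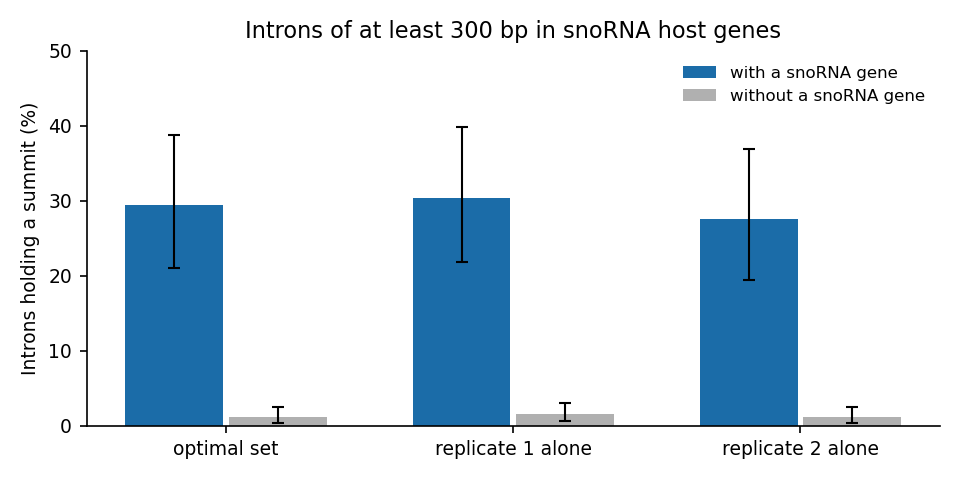
Share of introns of at least 300 bp in snoRNA host genes that hold a summit, for introns with a snoRNA gene (blue, n = 109) and without one (grey, n = 524), in the optimal set and in the 2409 highest-signal entries of each replicate; bars are exact 95% intervals. The blue bars stand between 27.5% and 30.3% and the grey ones between 1.15% and 1.53%.

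Intronic snoRNA genes near a protein-coding start included the strongest peak at any snoRNA gene, and 5 of the 8 strongest summits of this class lay closer to a protein-coding start than to the snoRNA. F54E7.10 lies in rps-12, which encodes a protein of the small ribosomal subunit, and its peak had 118 in replicate 1, 180 in replicate 2 and 299 pooled, at -253. D1007.20, in the large-subunit gene rpl-24.1, had 70.5, 136 and 204 at -402. K07C5.11, in nol-56, had 70.6, 96.3 and 162 at -372. In each of these 3 the summit was 120 to 268 bp upstream of a protein-coding start, that of ska-3, rpl-24.1 and nol-56.

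H06I04.9, in ubl-1, which encodes a ribosomal protein fused to a ubiquitin-like domain, had 60.8 in replicate 1, 69.5 in replicate 2 and 126 pooled at -409. Y24D9A.9, in rpl-7A, had 35.8, 69.1 and 106 at -368. The other 3 of the 8 highest differed. ZK484.9 has been described, and F55A11.10, in F55A11.6, had 50.3, 53.5 and 104 at -62, where it holds the split pair. B0334.12, antisense in the potassium channel gene twk-5, had 50.2, 68.9 and 116 at 157, past its end.

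Outside introns and over 1000 bp from the start of any protein-coding gene, 19 of 103 snoRNA genes had a summit within 500 bp and 17 in the start window (16.5%, 9.92 to 25.1). T19B4.8 had 51.0 in replicate 1, 65.1 in replicate 2 and 115 pooled at -55. T26A8.6 had 58.4, 46.8 and 106 at -43, and F32E10.10 had 33.1, 63.4 and 98.7 at 4. T26A8.6 holds the proximal pair, and T19B4.8 and F32E10.10 hold the split pair.

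T06C12.16 had 39.4 in replicate 1, 52.8 in replicate 2 and 89.6 pooled at -33. H09I01.2 had 27.4, 61.0 and 87.6 at -32, and F12F6.11 had 52.8 in replicate 2 and 87.3 pooled at -24, with a log2 ratio of replicate 2 over replicate 1 of 0.89. All 3 are 72 bp long and had their summit in the last 100 bp before the snoRNA. C51F7.4 shared its peak (33.1, 50.7 and 77.4) with C51F7.3, an intronic snoRNA gene of frm-7, and the summit lay between their starts, 74 bp before that of C51F7.3. Y39G10AR.24 was the eighth, with 32.6, 42.2 and 74.3 at -92.

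Outside introns but near a protein-coding start, 23 of 65 snoRNA genes had a summit within 500 bp and 21 in the start window (32.3%, 21.2 to 45.1). F39B2.14 had 80.0 in replicate 1, 127 in replicate 2 and 207 pooled at -94, 33 bp before the start of tmem-107. Y53F4B.47 had 73.6, 126 and 196 at -95, with cmtr-1, which encodes an mRNA cap methyltransferase, 126 bp away. F09G2.14 had 57.0, 111 and 158 at -61. At F39B2.14 the summit lay closer to the protein-coding start, and in the other 22 genes of this class it lay closer to the snoRNA start.

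The remaining 5 of the 8 highest were T02E1.9 (147 pooled), C36E8.11 (110), F59C6.15 (108), D2021.6 (103) and T23G11.12 (102), with summits between -113 and -24. D2021.6 lies near sdha-1, which encodes a subunit of succinate dehydrogenase, and is 1 of only 2 snoRNA genes on chromosome X with a summit. On X, 2 of 33 snoRNA genes had one within 500 bp (6.06%, 0.743 to 20.2), against 7.04% of genes of all types there. On chromosome IV it was 21 of 59 (35.6%, 23.6 to 49.1), against 3.16% of 19704 genes of all types. The genes of all types were not split by type within a chromosome. They include 15363 piRNA genes, of which 0.547% had a summit within 500 bp, so the share on a chromosome depends on how many lie there.

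At the limit of distance, B0041.9 in rpl-4 (456 bp, signal 95.4) and JC8.15 in tag-115 (486 bp, 62.6) were the 2 genes just inside. Just outside were C06A1.9, in the gene cdc-48.1 of an AAA ATPase (506 bp, 524), and R151.11 in rpl-6 (520 bp, 163). All 4 are intronic genes near the start of their host and the summits lay upstream, in or next to the host's promoter.

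The highest pooled signals without an optimal-set summit within 500 bp were those of W01C9.6 (47.8), T28B8.11 (47.7), F58D5.12 (47.4) and smy-3 (47.4), just under the lowest optimal-set signal of 48.5. W01C9.6 had its pooled summit at -15 and smy-3 at -47, inside the start window. T28B8.11 had it at -154 and F58D5.12 at 485.

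Replicates were compared at the 87 peaks. All 87 overlapped an entry of replicate 1 and 86 an entry of replicate 2. The log2 ratio of replicate 2 over replicate 1 had a median of 0.63 and an SD of 0.60 (n = 86), against 0.66 and 0.65 over all nuclear peaks (n = 2358), and 73 of 86 were higher in replicate 2. As a description across peaks, the log2 signals of both replicates correlated with a Pearson r of 0.529 over these 86. Among the 89 snoRNA genes, 76 also had a summit within 500 bp in the 2409 highest entries of replicate 1 and 79 in those of replicate 2. The optimal set was made from these same replicates, so high counts follow from the selection of the 89 genes. Of all nuclear genes, not so selected, 7.30% and 7.58% had such a summit, which is no measure of agreement between replicates. In all 3 lists there were 67.

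**Figure D4:**
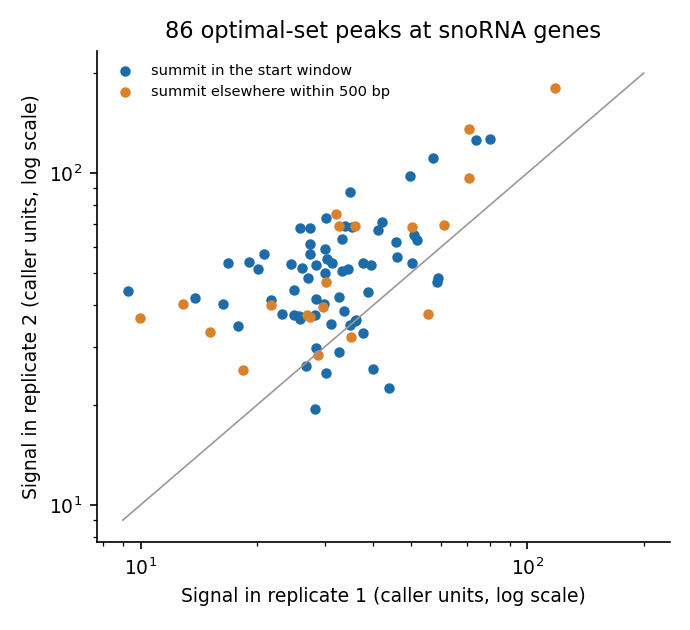
Signal of 86 optimal-set peaks at snoRNA genes in replicate 1 (x axis) and replicate 2 (y axis), both in caller units on log scales, split by whether the summit lies in a start window; the line marks equal values. Most points, 73 of 86, lie above the line.

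The letter patterns shown above were counted in the start windows of all genes, on the strand of the gene. Both were chosen by looking at snoRNA genes with summits, so their shares describe those genes and test nothing. A match is a description and not a binding site. Of the 68 snoRNA genes with an optimal-set summit in the window, 22 held the proximal pair (32.4%, 21.5 to 44.8), 17 the split pair (25%, 15.3 to 37.0), none both, and 29 neither. Of 278 snoRNA genes without such a summit, 14 held the proximal pair (5.04%) and 9 the split pair (3.24%). All nuclear genes held them at 0.431% and 0.282%.

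The share fell in steps with the list. Either pair was held by 39 of the 68 genes with an optimal-set summit (57.4%), by 9 of 48 with only a pooled-list entry in the window (18.8%) and by 14 of 230 with no entry (6.09%). In the intronic class far from protein-coding starts, 16 of 20 genes with a start-window summit held either pair (80.0%, 56.3 to 94.3), against 8 of 80 without (10%, 4.42 to 18.8). In that class 11 of the 20 held the proximal pair. On the opposite strand, none of the 68 windows held either pair.

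Read the other way, 22 of 36 snoRNA genes with the proximal pair had an optimal-set summit in the window (61.1%, 43.5 to 76.9), and 17 of 26 with the split pair (65.4%, 44.3 to 82.8), against 29 of 284 with neither (10.2%, 6.95 to 14.3). In replicate 1 alone the counts were 18 of 36, 15 of 26 and 27 of 284, against 2.01% of nuclear genes. In replicate 2 alone they were 21 of 36, 18 of 26 and 25 of 284, against 2.23%. The 3 kinds of gene did not differ in signal by much, with medians of 78.9 (n = 22), 76.0 (n = 17) and 74.5 (n = 29).

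The 2 pairs had their own positions. The proximal pair began at a median of 60 bp before the snoRNA (position -60.0, range -82 to -56, n = 22), and the split pair ended at a median position of -6 (range -19 to 3, n = 17) after beginning at -59.0. Summits lay a median of 18.5 bp from the middle of the proximal pair and 26.5 bp from the middle of the split pair.

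Other genes for short RNAs held the 2 pairs unequally. The proximal pair was found in the start windows of 39 of 129 snRNA genes (30.2%, 22.5 to 38.9) and 0.327% of tRNA genes. The split pair was found in 0.775% of snRNA genes and 0.163% of tRNA genes, but inside the tRNA genes themselves, which the window covers only in part, 203 of 612 held it (33.2%). The stricter box B core GTTCGANNC, read on both strands, was in 13 of the 68 snoRNA windows (19.1%, 10.6 to 30.5), against 9 of 278 without a summit (3.24%) and 5.11% of the 2389 windows of 200 bp around nuclear summits. All 13 were on the strand of the snoRNA.

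**Figure D5:**
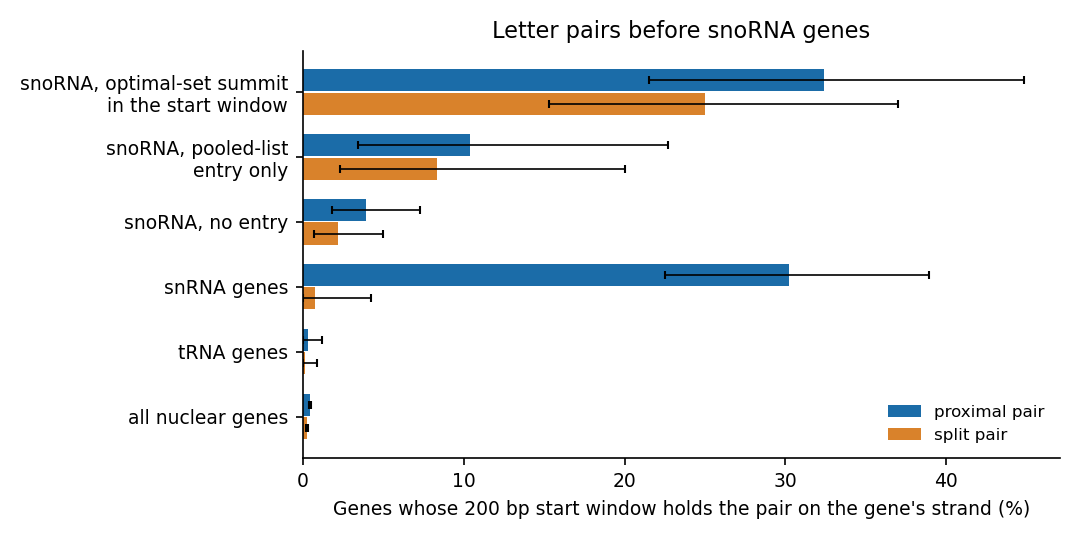
Share of genes whose 200 bp start window holds the proximal or the split pair on the strand of the gene, for snoRNA genes by the list that has an entry in the window, and for snRNA, tRNA and all nuclear genes; bars are exact 95% intervals. Among snoRNA genes the shares were 32.4% and 25% with an optimal-set summit and 3.91% and 2.17% with no entry.

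The snoRNA genes with start-window summits also differed from the others in length and in the letters of the gene itself, given here as counts with no test. They had a median length of 96.0 bp (n = 68), against 132 bp for the others (n = 278). The D box letters CTGA stood in the last 30 bases of 36 of 68 (52.9%), against 55 of 278 (19.8%) and 8.20% of all nuclear genes. The exact C box letters TGATGA stood in the first 30 bases of 10 of 68 (14.7%), against 11 of 278 (3.96%) and 1.07% of all genes. With 1 difference allowed in the C box, both boxes were found in 21 of 68 (30.9%), against 26 of 278 (9.35%) and 1.47% of all nuclear genes.

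The letters ACA stood in the last 9 bases of 19 of 68 (27.9%) against 79 of 278 (28.4%). These letters were not counted over all nuclear genes. They were in 1 of 36 snoRNA genes with the proximal pair (2.78%) and in 11 of 26 with the split pair (42.3%). A run of TTTT, the letters at which RNA polymerase III ends transcription, stood in the 20 bases after 24 of 26 snoRNA genes with the split pair (92.3%) and 19 of 36 with the proximal pair (52.8%). For comparison it followed 41.9% of all snoRNA genes, 98.4% of tRNA genes, 27.9% of snRNA genes and 35.7% of all genes.

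Some snoRNA genes are near-identical copies, and reads from such copies may be hard to place. At a limit of 90% identity, 13 pairs joined 18 genes, and 10 of these 18 had a start-window summit. Of all 346 snoRNA genes, 68 (19.7%) had one, and of all nuclear genes 2.19%. Y53F4B.47 and C05H8.3, in ckk-1, share 95% of 80 bp, and their peaks had pooled signals of 196 and 55.3. T26A8.6 and T08B6.64 share 95.6%, with 106 and 50.1. How the authors treated reads that map to several places is not given in the sources used here, so values at these genes are uncertain.

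Host genes were described last. The 178 intronic snoRNA genes lie in 159 host genes, of which 55 (34.6%, 27.2 to 42.5) had an optimal-set summit in the promoter, taken from 1000 bp before to 200 bp after the start, against 11.7% of protein-coding genes. Among 13 hosts with the ribosomal protein names rpl- or rps-, 12 had one, and among the 146 hosts with other names, ubl-1 included, 43 (29.5%). The 19 snoRNA genes in the 13 hosts had a summit within 500 bp in 5 cases and in the start window in none. Among all 178 intronic snoRNA genes the shares were 26.4% and 16.9%, and among those near a start 29.5% and 12.8%.

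The 3 hosts with 3 or more snoRNA genes were nol-56 with 4, rpl-6 with 3 and top-2, which encodes DNA topoisomerase II, with 3. Their promoters had signals of 162, 163 and 131. None of their 10 snoRNA genes had a start-window summit, and only K07C5.11 had one within 500 bp, at the nol-56 promoter. In contrast pdl-1, with no promoter summit, holds C27H5.9 and C27H5.10 on its opposite strand, and the peak (35.8 in replicate 1, 35.9 in replicate 2, 70.6 pooled) lay at -56 from C27H5.9.

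The genes for the proteins that form snoRNA particles were listed as a group. All 10 had an optimal-set summit in the promoter (exact interval 69.2 to 100%), against 11.7% of protein-coding genes. The list was chosen with earlier results of these data known, so the count describes these 10 genes and tests nothing. For the C/D particle, fib-1, the methyltransferase fibrillarin, had 68.9 in replicate 1, 77.6 in replicate 2 and 144 pooled, and nol-56 has been given. The core genes nol-58 and snu-13 had pooled signals of 112 and 140.

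For the H/ACA particle, dkc-1, the pseudouridine synthase, had 37.3 in replicate 1, 91.7 in replicate 2 and 124 pooled. Its partners Y48A6B.3, nola-3 and garr-1 had pooled signals of 99.5, 110 and 85.1. The assembly ATPases ruvb-1 and ruvb-2 had 59.1 and 153. In replicate 1, garr-1 and ruvb-1 had only 18.3 and 18.4, at ranks 3399 and 3355, beyond its 2409 highest entries. In replicate 2 they ranked 564 and 1358. The summit of nola-3 lay at -610 from its start. All but nol-56 and ruvb-2 share the summit with the promoter of another gene, such as mut-15 for fib-1 and ran-1 for dkc-1, so it cannot be assigned to the listed gene alone.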

How the data were processed

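ChIP-seq peaks of eGFP-W03F9.2 from 2 biological replicates of whole worms were analysed; per the labels the antibody is listed under W03F9.2, and whether it recognised the tag is not stated there. The signal values are those the authors deposited, per the files' accompanying notes: for each replicate and for both together, 30000 entries of peaks and background called against a control alignment, and an optimal set of 2409 peaks kept by their reproducibility (IDR) step. Which aligner and peak caller produced them is not given in the sources used here, read depth is unknown, and the ce10 lists were not used. Genes and introns came from Ensembl release 115 and sequences from RefSeq, both WBcel235, the assembly of ce11.

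A snoRNA gene was called intronic where it lay whole within an intron of a protein-coding gene on either strand, and near a start within 1000 bp of the start of a protein-coding gene, with 1 start for each gene. Positions run along the snoRNA strand with 0 at the first base. Shares carry exact (Clopper-Pearson) 95% intervals from SciPy 1.17.1, and no test was made. Copies were aligned with edlib 1.3.9.post1. Steps were checked on simulated summits and letters. Named genes are the 8 of highest signal in each of the 4 location classes, those at the distance limit, the 4 highest pooled signals without an optimal-set summit, their hosts, hosts of 3 or more, and 10 snoRNP genes; others were named after their values were seen. Members and lists were chosen with earlier results of these data known.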

Additional observations from a re-analysis of the deposited data

How the results depend on the processing

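Of 42 values recomputed under another setting, 32 stayed within 1.5 times of the reported count or within the spread between replicates, and 10 moved. None reversed, but most of the values are counts, which have no direction and could not reverse. With only the 1204 optimal-set peaks of highest signal, snoRNA genes with a summit within 500 bp numbered 53, intronic ones 27, those over 1000 bp from a protein-coding start 22, summits near snoRNA genes 51, host introns with a summit 22 and start-window genes 42, and the median position was -51.0. This set holds fewer peaks by construction. At 1000 bp the intronic count was 74 and the median position -49.0. Leaving out a replicate gave 84 to 89 snoRNA genes within 500 bp, 60 to 64 in the start window, 37 to 43 far from protein-coding starts, 44 intronic in both cases, 38 to 41 host introns and a median position of -40.5 to -37.0. Settings chosen after seeing the data were those of the start window and the removal of the 18 genes with near-identical copies, which left 79 of 328 within 500 bp and 58 in the start window. No paired analysis was possible because all samples form 1 group. Depth is unknown, summits are approximate, no untagged control group is among the samples, and the lists hold no value for genes without an entry.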

Other observations

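The 2 letter pairs were also present at summits away from snoRNA genes. Of 2302 optimal-set summits with no snoRNA gene within 500 bp, 19 held the proximal pair within 100 bp on either strand, and 6 of these (31.6%) had an annotated snRNA gene within 500 bp, against 0.825% of all 2302. The split pair was held by 56, of which 37 had a tRNA gene within 500 bp (66.1%), against 5.56% of all 2302, and 27 an ncRNA gene (48.2%), against 14.3%.

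The peak at ZK994.7 ranked 220 by signal in replicate 1 and 377 in the pooled list, but no entry of replicate 2 overlapped it, while the other 86 peaks at snoRNA genes were matched in both. Its pooled signal of 117 was above its signal of 60 in replicate 1.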
